A study of Sus scrofa with 4 samples.

Results

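miR-103 with miR-107, and miR-15 with miR-16, miR-195, miR-424 and miR-497, are 2 related families of microRNAs (miRNAs), short RNAs that guide the silencing machinery to messenger RNAs, and all but 1 of the annotated members below carry the same 6 bases near their 5′ end. Members were all rows of the annotated pig miRNA table that bear one of these 7 numbers, with any letter or arm. They came to 9 of 326 rows: miR-103, miR-107, miR-16, miR-15a, miR-15b, miR-195, miR-497 and both arms of miR-424. A further table of sequences conserved between species, in which 79 of 2791 rows belong to the families mir-103, mir-15 and mir-322, served as a check, and no row there had the family name mir-16.

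Small RNA from hippocampi of Rongchang piglets, newborns of a Chinese breed, was sequenced in 4 libraries. The piglets were 8 littermates of the breed's wild type (4 females and 4 males), 4 left without injection as controls and 4 given 200 mg of iron dextran into muscle on days 3 and 4 after birth to cause oxidative stress. Ventral and dorsal hippocampus were taken separately and mixed within a group, giving 1 library each for ventral control, dorsal control, ventral iron and dorsal iron. With 1 pool per group there are no replicates, so how far single piglets vary was not measured, and the labels do not say whether all 4 piglets of a group entered each pool. All intervals below are 95% intervals for counting error only, and PCR copies of a molecule are not independent molecules. In these bulk libraries fewer cells of a type and less RNA per cell cannot be told apart. Levels are given as CPM, a miRNA's reads per 1000000 annotated miRNA reads of its library, after TMM scaling, which corrects the totals for the typical miRNA. The libraries held 11396809 to 13839556 annotated miRNA reads. Rows that repeat each other were merged to 321 miRNAs, and the 251 with 10 CPM or more in some library are called measured, all 9 members among them. The neuronal miR-124a was at 33451 to 41655 CPM in these brain libraries.

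A miRNA recognises its targets mainly through its seed, bases 2 to 8 from the 5′ end. miR-103 and miR-107 lie within the genes of pantothenate kinases, the enzymes that start coenzyme A synthesis, and are known as regulators of insulin sensitivity and of Dicer, the nuclease that makes miRNAs. miR-15a, miR-15b and miR-16 are known to restrain the G1 to S step of the cell cycle through cyclins D and E and to lower the survival protein BCL2. miR-195 and miR-497 are transcribed as a pair, and miR-424, whose rodent counterpart is called miR-322, is paired with miR-503. The RefSeq pig annotation (Sscrofa 11.1, another build than the authors', so used for neighbours only) places MIR103-1 within PANK3, MIR103-2 within PANK2 and MIR107 within PANK1. It places MIR15B beside MIR16-1 within SMC4, a condensin gene of chromosome packing, MIR15A beside MIR16-2, and MIR195 beside MIR497.

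The mature sequences are shown because the 9 members fall into seed groups that differ by 1 base of register. All are those which the conserved table lists for pig, written 5′ to 3′ with the seed in capitals.
miR-103: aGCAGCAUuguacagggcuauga
miR-107: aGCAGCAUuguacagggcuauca
miR-16: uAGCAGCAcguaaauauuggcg
miR-15a: uAGCAGCAcauaaugguuugu
miR-15b: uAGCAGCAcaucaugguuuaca
miR-195: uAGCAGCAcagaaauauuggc
miR-497: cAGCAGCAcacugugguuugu
miR-424-5p: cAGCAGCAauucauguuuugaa
miR-424-3p: cAAAACGUgaggcgcugcuau
miR-503: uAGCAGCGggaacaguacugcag

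The 6 bases AGCAGC stand at positions 1 to 6 in miR-103 and miR-107 and at positions 2 to 7 in miR-16, miR-15a, miR-15b, miR-195, miR-497 and miR-424-5p. The first 2 therefore share the seed GCAGCAU and the other 6 the seed AGCAGCA. miR-424-3p is the opposite arm of its hairpin and has neither. miR-503, which is no member, has the 6 bases at the same place but a G at the end of its seed. Of 2791 rows of the conserved sequences, 58 hold these 6 bases within bases 1 to 8, all of the families mir-15 (35 rows), mir-103 (11), mir-497 (5), mir-322 (4) and mir-503 (3).

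Near-identical members limit how far their reads can be told apart. miR-103 and miR-107 differ by the single substitution G22C (miR-103 first, positions counted from 1 at the 5′ end), so a read of their 21 shared first bases fits both. Rows of the conserved table that end within those 21 bases held 5.98% to 7.21% of the mature miR-103 and miR-107 reads. miR-16 and miR-195 differ at 2 of 21 bases compared, and miR-15a and miR-15b at 3 of 21. The reads of miR-497, miR-424-5p and miR-424-3p were whole numbers in all 4 libraries, while those of the other 6 members held fractions in at least 1 library, as when a read is divided between rows. Levels of different members are compared as CPM without a length correction, since their mature sequences all have 21 to 23 bases.

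miR-103 was the most abundant member in every library, 13th to 18th among the measured miRNAs. It stood at 11697 CPM in control ventral, 14992 CPM in control dorsal, 16148 CPM in iron ventral and 18532 CPM in iron dorsal. All neighbours in this order differed beyond counting error, and the highest library exceeded the lowest 1.58-fold. With TMM that was a wider spread than in all but 37 of 251 measured miRNAs, whose median spread was 1.33-fold. As shares of annotated reads, without TMM, miR-103 kept this order with a narrower spread, from 1.22% in control ventral to 1.73% in iron dorsal. miR-107 followed the same order from 1178 CPM in control ventral through 1503 CPM in control dorsal and 1542 CPM in iron ventral to 1635 CPM in iron dorsal. For miR-107 the closest neighbours, iron ventral and control dorsal, stood at a ratio of 1.03 (1.01 to 1.05). With total count scaling iron dorsal was not the highest library of miR-107. It was then at a ratio of 0.988 (0.968 to 1.01) to iron ventral and 0.996 (0.976 to 1.02) to control dorsal.

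Among the 6 miRNAs with the AGCAGCA seed, miR-16 was the most abundant, and it varied little. It stood at 2036 CPM in control ventral, 2292 CPM in control dorsal, 2350 CPM in iron ventral and 2251 CPM in iron dorsal. Its spread of 1.15-fold was exceeded by 227 of 251 measured miRNAs, and its closest neighbours, control dorsal and iron dorsal, stood at a ratio of 1.02 (1.0009 to 1.04). With total count scaling the iron to control ratio of these dorsal libraries was 0.900 (0.884 to 0.915). Iron dorsal was then the lowest library, at 0.210% of annotated reads beside 0.213% in control ventral, with intervals that overlap. miR-15a, the neighbour of 1 miR-16 gene, stood at 333 CPM in control ventral, 358 CPM in control dorsal, 357 CPM in iron ventral and 276 CPM in iron dorsal. miR-15b, the neighbour of the other miR-16 gene, stood at 153.5 CPM in control ventral, 153.1 CPM in control dorsal, 150.4 CPM in iron ventral and 192 CPM in iron dorsal. Iron dorsal was thus the lowest library for miR-15a and the highest for miR-15b, apart from its nearest library in both cases. For miR-15b control ventral and control dorsal were at a ratio of 1.002 (0.942 to 1.07) and control dorsal and iron ventral at 1.02 (0.954 to 1.09), and for miR-15a control dorsal and iron ventral were at 1.005 (0.963 to 1.05), so these neighbours could not be told apart.

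The pair of miR-195 and miR-497 did not keep the same order. miR-195 stood at 946 CPM in control ventral, 1204 CPM in control dorsal, 1125 CPM in iron ventral and 1188 CPM in iron dorsal. Its 2 dorsal libraries, at a ratio of 1.01 (0.990 to 1.04), could not be told apart with TMM scaling. They differed beyond counting error with total count scaling, at an iron to control ratio of 0.904 (0.882 to 0.925). With the authors' RPM that ratio was 0.916 (0.894 to 0.938). miR-497 stood at 1262 CPM in control ventral, 1536 CPM in control dorsal, 1346 CPM in iron ventral and 1012 CPM in iron dorsal, and all neighbours in this order differed beyond counting error. Control ventral was the lowest library for miR-195, and iron dorsal was the lowest for miR-497.

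miR-424-5p was the second most abundant of the AGCAGCA group in control ventral, at 1849 CPM. It stood at 1647 CPM in control dorsal, 1685 CPM in iron ventral and 1241 CPM in iron dorsal, where the middle 2 were at a ratio of 1.02 (1.003 to 1.04). Its opposite arm miR-424-3p was the least abundant member, with 370 reads (25.5 CPM) in control ventral, 292 reads (23.7 CPM) in control dorsal, 294 reads (23.8 CPM) in iron ventral and 220 reads (20.7 CPM) in iron dorsal. At that depth neighbours in the order of miR-424-3p could not be told apart. miR-503 stood at 331 CPM in control ventral, 370.0 CPM in control dorsal, 408 CPM in iron ventral and 365 CPM in iron dorsal.

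**Figure D1:**
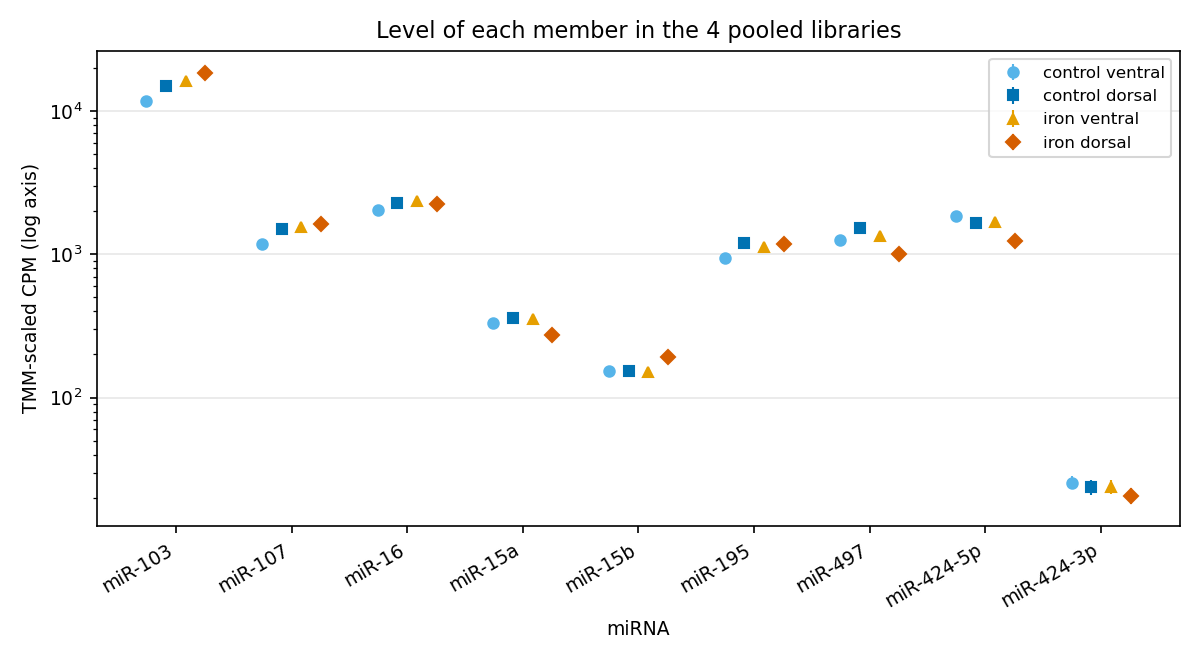
TMM-scaled CPM on a log axis for each of the 9 members in the 4 pooled libraries, 1 point per library with its 95% counting interval (mostly smaller than the point). miR-103 and miR-107 are lowest in control ventral and highest in iron dorsal, while miR-15a, miR-497 and miR-424-5p are lowest in iron dorsal.

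Summed by seed, the groups took different courses. miR-103 and miR-107 together stood at 12875 CPM in control ventral, 16495 CPM in control dorsal, 17691 CPM in iron ventral and 20167 CPM in iron dorsal, a spread of 1.57-fold. The 6 AGCAGCA miRNAs together stood at 6579 CPM in control ventral, 7191 CPM in control dorsal, 7014 CPM in iron ventral and 6160 CPM in iron dorsal, a spread of 1.17-fold. Iron dorsal was thus the highest library for the former sum and the lowest for the latter. Without TMM, as shares of annotated reads, the former ran from 1.35% in control ventral to 1.88% in iron dorsal. The latter ran from 0.575% in iron dorsal to 0.733% in control dorsal. By these shares the spread was narrower for the former sum and wider for the latter than with TMM.

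The first question was how iron and control libraries of ventral hippocampus differ in these families. miR-103 was higher in the iron library, at a ratio of 1.38 (1.37 to 1.39), and so was miR-107, at 1.31 (1.28 to 1.34). miR-195 stood at a ratio of 1.19 (1.16 to 1.22) and miR-16 at 1.15 (1.14 to 1.17). miR-15a and miR-497 were each at 1.07, miR-15b at 0.980 (0.921 to 1.04), miR-424-5p at 0.912 (0.895 to 0.928) and miR-424-3p at 0.934 (0.799 to 1.09). None of the 9 was at least 2-fold different with an interval excluding 1, against 1.99% of the 251 measured miRNAs. A smaller threshold, a log2 ratio of 0.32 in either direction with an interval excluding a ratio of 1, was also used: 2 of 9 members passed it as higher, against 10.4% of measured miRNAs, and 0 as lower, against 13.1%. Over all measured miRNAs that is 26 higher and 33 lower, and with totals in place of TMM 19 higher and 43 lower, while the members' count was the same with both. The members' median log2 ratio was 0.10, beside 0.00 over all measured miRNAs, and 9 of 251 had a higher ratio than miR-103. In the same comparison the oligodendrocyte markers miR-219b-3p and miR-338 (3 listed and matched, 2 measured, none at 0) summed to 10264 CPM in control and 13906 CPM in iron ventral, both past the smaller threshold as higher. The muscle markers miR-1, miR-133a-3p and miR-206 (3 of 3 matched, none at 0) summed to 169 and 254 CPM, with 2 of 3 past it as higher, and of the 5 neuron markers 1, miR-128, passed it as higher. As lower it was passed by 2 of 4 measured immune markers, the choroid plexus marker miR-204 and 3 of 3 measured from the epithelial list. The latter were miR-182, miR-183 and miR-96-5p, while miR-200a, miR-200b, miR-200c and miR-141 were not matched. The part of these lists in the members' values was not tested.

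Iron against control in the dorsal hippocampus gave another pattern, in which members of the AGCAGCA seed passed the smaller threshold in both directions with TMM. In ventral hippocampus they also lay on both sides of 1, but none of that seed passed it. miR-497 was lower in the iron library by 1.52-fold (1.48 to 1.55), miR-424-5p by 1.33-fold (1.30 to 1.36) and miR-15a by 1.30-fold (1.24 to 1.36). miR-15b was higher, with a ratio of 1.26 (1.18 to 1.34), just past the smaller threshold. miR-103 was just short of it at 1.24 (1.23 to 1.24). miR-16 was at 0.982 (0.965 to 0.999) and miR-195 at 0.986 (0.963 to 1.01), but at 0.900 and 0.904 with total count scaling. miR-107 was at 1.09 (1.06 to 1.11), but at 0.996 with total count scaling. miR-424-3p was at 0.873 (0.730 to 1.04).

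None of the members was at least 2-fold different here, against 0.797% of measured miRNAs. Past the smaller threshold 1 of 9 was higher, against 17.9% of measured miRNAs, and 3 of 9 were lower, against 19.9%. The scaling bore on this comparison more than on the others: totals moved the median of all measured log2 ratios by -0.13 and the authors' RPM by -0.11. With totals 31 measured miRNAs were higher and 74 lower in place of 45 and 50, and of the members 0 were higher and 4 lower. Relative to all measured miRNAs, 13 had a lower ratio than miR-497. In the same comparison the neuron markers summed to 65259 CPM in control and 52235 CPM in iron dorsal (5 of 6 listed were matched, 2 of them past the smaller threshold as lower, none at 0). The oligodendrocyte markers summed to 11503 and 8812 CPM (1 of 2 measured past it as lower). As lower the threshold was also passed by 1 of 3 muscle, 1 of 4 vascular, 1 of 4 immune and 2 of 3 epithelial markers, and as higher by 2 of 4 astrocyte and 1 of 3 erythroid ones. The part of these lists in the lower values of miR-497, miR-424-5p and miR-15a was not tested.

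Without treatment, the regions of control piglets were compared. miR-103 was higher in the dorsal library at a ratio of 1.28 (1.27 to 1.29), miR-107 at 1.28 (with an upper bound of 1.30) and miR-195 at 1.27 (1.24 to 1.30). miR-497 was at 1.22 (1.19 to 1.24), miR-16 at 1.13 (1.11 to 1.14), miR-15a at 1.08 (1.03 to 1.12) and miR-424-5p at 0.891 (0.875 to 0.908). miR-15b was at 0.998 (0.938 to 1.06) and miR-424-3p at 0.927 (0.792 to 1.08). Of the 9 members 0 were at least 2-fold different, against 1.99% of measured miRNAs. Past the smaller threshold 3 were higher, against 12.4%, and 0 lower, against 14.3%; with totals, or with duplicate rows not merged, 0 were higher, since all 3 lie close to it. Over all measured miRNAs 31 were higher and 36 lower, and without merging 22 and 43. The vascular markers, both arms of miR-126 with miR-143-3p and miR-145-5p (4 of 4 matched, none at 0), summed to 15880 CPM in control ventral and 21758 CPM in control dorsal, and 1 of them, miR-143-3p, passed the smaller threshold as higher. The muscle markers summed to 169 CPM in control ventral and 276 CPM in control dorsal, with 2 of 3 past the threshold as higher. Of the 5 neuron markers 1, miR-128, passed it as higher, at a ratio of 1.51. The others lay between 0.906 (miR-138) and 1.16 (miR-137). As lower it was passed by miR-204, 3 of 3 measured epithelial markers and 1 of 3 erythroid ones. The part of these lists in the members' values was not tested. This comparison shares the control ventral library with that of iron in ventral hippocampus, where miR-103 and miR-107 also had their highest ratios, so the comparisons are not independent. The epithelial list (4 of 8 matched, 3 measured, none at 0) stood apart in that library through miR-182, miR-183 and miR-96-5p. These summed with the rest to 457 CPM against 127 to 153 CPM in the other 3 libraries. Their part in the members' low values there was not tested. As miR-200a, miR-200b, miR-200c and miR-141 were not matched, the list rests on those miRNAs and does not measure epithelial cells as such.

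The same regions of iron piglets were compared next, with the iron dorsal library that also enters the dorsal iron comparison. miR-424-5p was lower in the dorsal library by 1.36-fold (1.33 to 1.39), miR-497 by 1.33-fold (1.30 to 1.36) and miR-15a by 1.29-fold (1.23 to 1.36). miR-15b had a ratio of 1.28 (1.20 to 1.36), higher in dorsal, and miR-103 was at 1.15 (1.14 to 1.15). miR-16 was at 0.958 (0.942 to 0.974) and miR-424-3p at 0.867 (0.724 to 1.04). miR-107 was at 1.06 (1.04 to 1.08) and miR-195 at 1.06 (1.03 to 1.08), but at 0.988 and 0.983 with total count scaling. Again 0 members were at least 2-fold different, against 0.797% of measured miRNAs. Past the smaller threshold 1 of 9 was higher, against 11.6%, and 3 were lower, against 16.3%. With totals 0 members were higher and 3 lower, and over all measured miRNAs 13 were higher and 60 lower in place of 29 and 41. The oligodendrocyte markers summed to 13906 CPM in iron ventral and 8812 CPM in iron dorsal, where 2 of 2 measured passed the smaller threshold as lower. So did 1 of 5 neuron, 1 of 3 muscle, 1 of 4 immune, 2 of 3 erythroid and 1 of 3 epithelial markers, while 1 of 4 vascular ones passed it as higher. The part of these lists in the members' values was not tested.

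**Figure D2:**
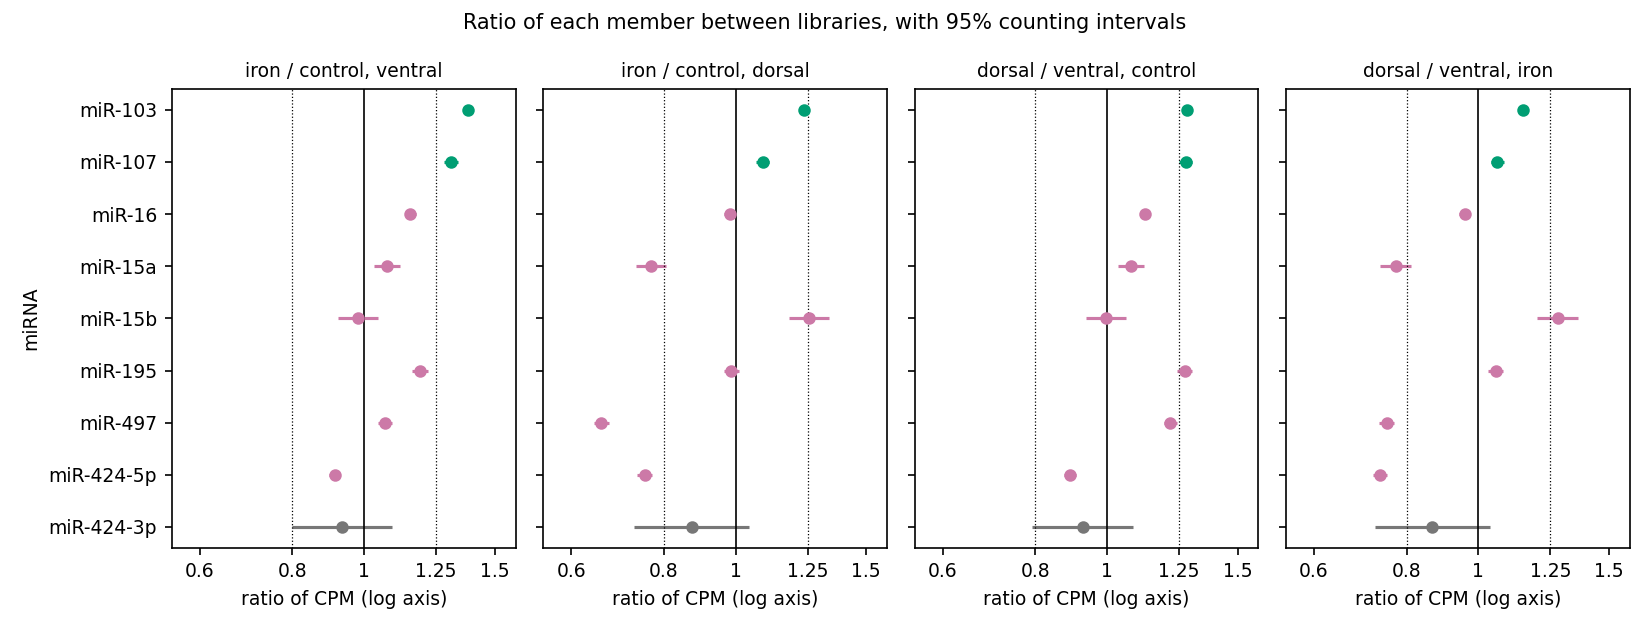
Ratio of CPM on a log axis for each member in the 4 pairwise comparisons, with 95% counting intervals. The solid line marks 1 and the dotted lines the smaller threshold in either direction, green points are miR-103 and miR-107, pink points the 6 miRNAs with the other seed and the grey point miR-424-3p. In the 2 comparisons that hold iron dorsal, miR-15a, miR-497 and miR-424-5p lie beyond it on the lower side and miR-15b on the higher side.

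**Figure D3:**
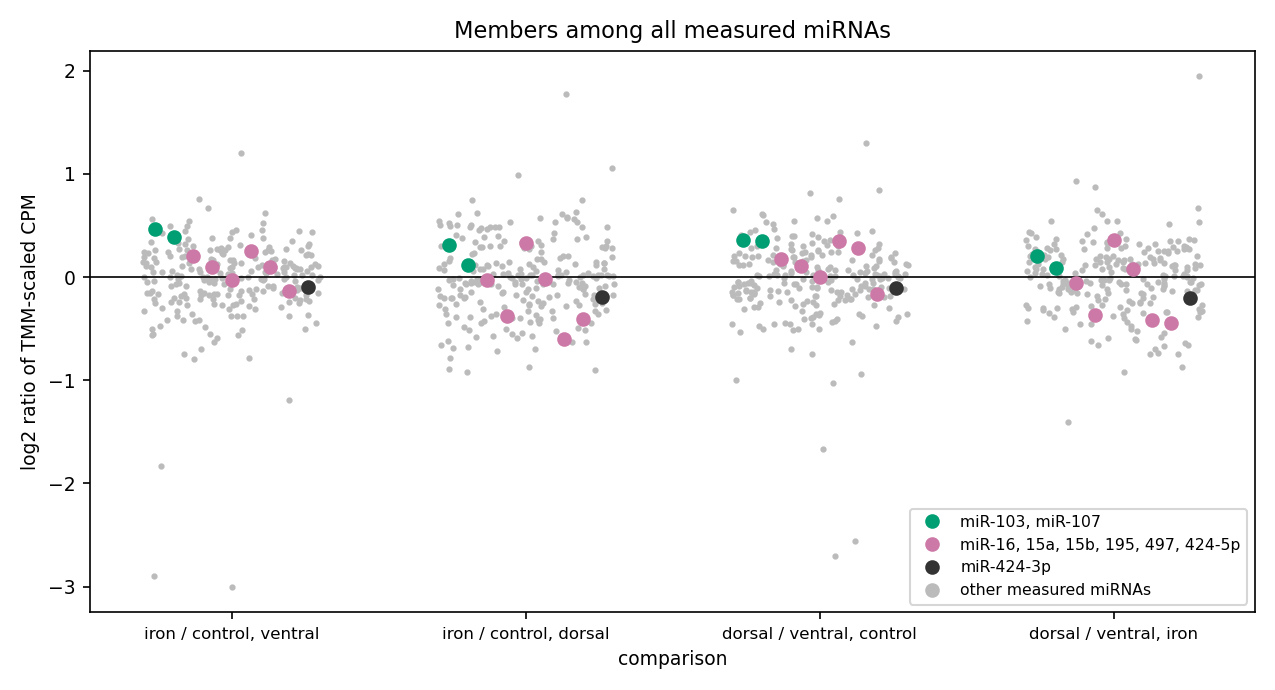
Log2 ratio of CPM of all 251 measured miRNAs in the 4 comparisons, with the 9 members as large points (green for miR-103 and miR-107, pink for the 6 with the AGCAGCA seed, black for miR-424-3p) and the others in light grey, spread sideways at random. The members lie between -0.60 (miR-497 in dorsal iron, 14th lowest of 251) and 0.47 (miR-103 in ventral iron, 10th highest).

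Over all 4 libraries the iron difference was tested with region as a term, and the region difference with treatment as a term. edgeR's quasi-likelihood test called 0 of 251 miRNAs for iron (0%) and 0 of 251 for region (0%) at an adjusted p under 0.05. The models leave 1 residual degree of freedom. Since the 2 regions of a treatment were taken from the same piglets, the p-values describe these 4 libraries only, and those for iron understate the error. For iron 11 of 251 had an unadjusted p under 0.05, among them 1 member, and DESeq2 called 1 miRNA, no member, and limma-trend 0. miR-103 had a log2 iron difference of 0.39 with an unadjusted p of 0.0455 and an adjusted p of 0.929 in edgeR, and was higher in 2 of 2 regions. miR-424-5p was at -0.27 (lower in 2 of 2), miR-497 at -0.25 (higher in 1 region, lower in the other) and miR-107 at 0.25, each with an adjusted p of 0.929 in edgeR. For region 8 of 251 had an unadjusted p under 0.05, no member among them, and DESeq2 and limma-trend called 0. Among members the smallest unadjusted p for region was 0.130, for miR-103 at a log2 difference of 0.28, and the adjusted p of all 9 was 0.996.

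Shares of reads within a library do not depend on how libraries are scaled. miR-103 and miR-107 made up 66.2% of the reads of both seed groups in control ventral (66.0% to 66.4%), 71.6% in iron ventral, 69.6% in control dorsal and 76.6% in iron dorsal (76.4% to 76.8%). Among the pair, miR-107 took 9.15% in control ventral (9.02% to 9.28%), 8.72% in iron ventral, 9.11% in control dorsal and 8.11% in iron dorsal (7.99% to 8.22%). The 2 control libraries thus overlapped, and the iron libraries were lower.

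Iron dorsal stood apart in the shares of the AGCAGCA group. miR-15a took 68.4% of the reads of miR-15a and miR-15b in control ventral (67.3% to 69.5%), 70.3% in iron ventral, 70.1% in control dorsal and 58.9% in iron dorsal (57.5% to 60.3%). miR-497 took 57.1% of the reads of its pair with miR-195 in control ventral (56.6% to 57.7%), 54.5% in iron ventral, 56.1% in control dorsal and 46.0% in iron dorsal (45.4% to 46.7%). It was the more abundant of the pair in 3 libraries and the less abundant in iron dorsal.

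Within the whole AGCAGCA group miR-16 held the largest share in each library, from 30.9% in control ventral to 36.5% in iron dorsal. miR-424-5p came next and held 28.1% in control ventral, 24.0% in iron ventral, 22.9% in control dorsal and 20.1% in iron dorsal. miR-195 took 14.4% in control ventral and 19.3% in iron dorsal, miR-15b 2.33% and 3.12%, and miR-15a 5.06% and 4.48%. miR-503 took 15.2% of its pair with miR-424-5p in control ventral (14.8% to 15.6%), 19.5% in iron ventral, 18.3% in control dorsal and 22.7% in iron dorsal (22.1% to 23.3%). Among the arms of miR-424, the 3p arm held between 1.36% (1.23% to 1.51%) in control ventral and 1.64% (1.43% to 1.87%) in iron dorsal, intervals that overlap.

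**Figure D4:**
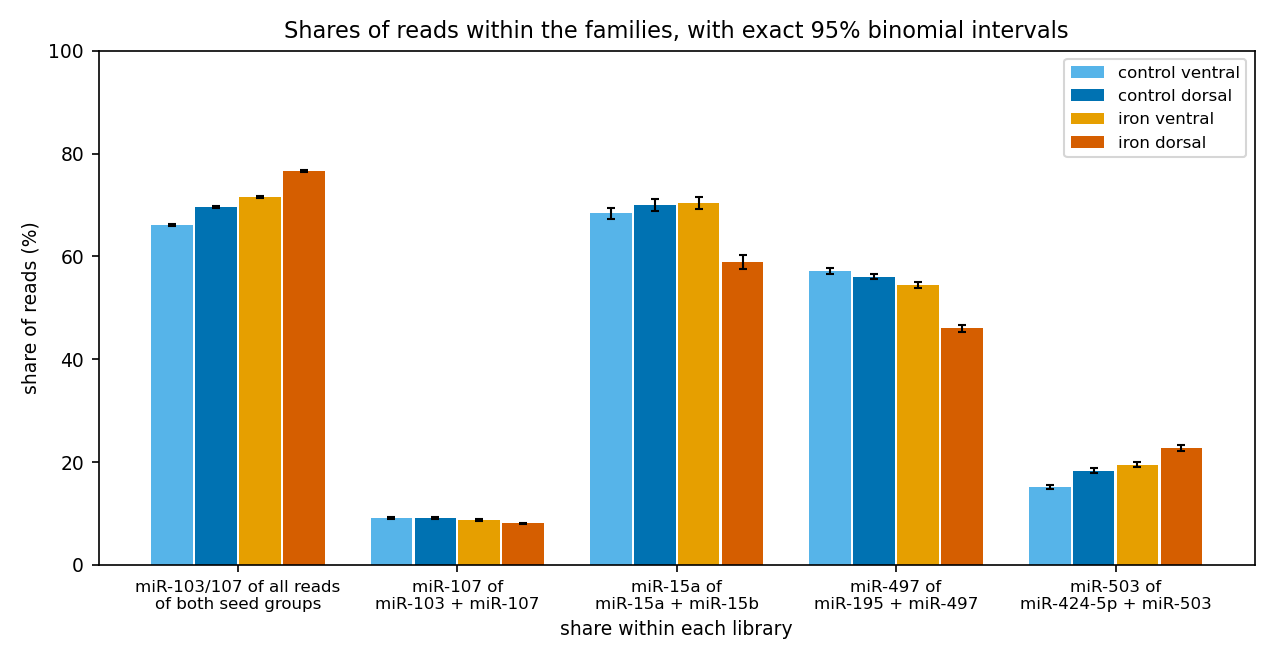
Share of reads in percent within each library for 5 pairs, as bars from 0 with exact 95% binomial intervals, coloured by library. The shares of miR-15a and miR-497 within their pairs are lowest in iron dorsal, at 58.9% and 46.0%, and that of miR-103 with miR-107 among both seed groups is highest there, at 76.6%.

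The conserved table gave the same directions for the family sums. The mir-103 family (23 rows) stood at 12111 CPM in control ventral, 15625 CPM in control dorsal, 16673 CPM in iron ventral and 18887 CPM in iron dorsal, scaled with the factors of the annotated table. Its iron ratio was 1.38 (1.37 to 1.39) in ventral and 1.21 (1.20 to 1.22) in dorsal hippocampus. The mir-322 family (6 rows), which holds miR-424, was lower in iron dorsal than in control dorsal by 1.33-fold, and the mir-497 family (9 rows) by 1.52-fold. The mir-15 family (50 rows), which holds miR-15, miR-16 and miR-195, was at a ratio of 0.943 (0.930 to 0.956) there and at 1.15 (1.14 to 1.17) in ventral hippocampus. These tables are 2 counts of the same libraries and give no independent support.

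By the root mean square difference of centred log2 CPM over 4 libraries, the 3 miRNAs nearest to the sum of miR-103 and miR-107 among 242 measured non-members were miR-148a-5p (0.061), miR-99a (0.076) and miR-374a-3p (0.082), where the median non-member lay at 0.271. miR-148a-5p stood at 101 CPM in control ventral, 139 CPM in control dorsal, 136 CPM in iron ventral and 151 CPM in iron dorsal. Nearest to the AGCAGCA sum were miR-151-3p (0.040), miR-342 (0.047) and miR-139-5p (0.049), where the median lay at 0.178. miR-151-3p, for example, stood at 2722 CPM in control ventral, 3116 CPM in control dorsal, 3137 CPM in iron ventral and 2644 CPM in iron dorsal.

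Other miRNAs known to restrain the G1 to S step and the neuron marker miR-124a among them, served as a comparison for the miR-15/16 group. Of 21 listed 18 were matched by name and 17 measured. In the 4 comparisons 0 were at least 2-fold different, against 0.797% to 1.99% of all measured miRNAs. For ventral iron 0 of 17 passed the smaller threshold as higher and 2 as lower, against 10.4% and 13.1% of all measured miRNAs. In dorsal hippocampus 3 were higher and 2 lower, against 17.9% and 19.9%. Dorsal against ventral, 0 were higher and 2 lower in control piglets, against 12.4% and 14.3% of all measured miRNAs. In iron piglets 2 were higher and 1 lower, against 11.6% and 16.3%. The most abundant were miR-124a, a neuronal miRNA, at iron ratios of 1.03 (ventral) and 0.827 (dorsal), miR-26a at 1.07 and 1.01, let-7a at 1.07 and 0.952, and let-7c at 1.09 and 0.943. Their median log2 iron ratios were 0.08 in ventral and -0.07 in dorsal hippocampus, beside 0.00 and -0.02 over all measured miRNAs.

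Blood cells also hold miR-16 and miR-15a in quantity, so the erythroid markers are given beside them. miR-451, miR-144 and miR-486 (3 of 3 matched, none at 0) summed to 1075 CPM in control ventral, 837 CPM in control dorsal, 1019 CPM in iron ventral and 861 CPM in iron dorsal. For iron in dorsal hippocampus miR-144 was at a ratio of 1.27, miR-451 at 0.956 and miR-486 at 0.834, where miR-16 was at 0.982 and miR-15a at 0.770. Their part in the members' values was not tested.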

How the data were processed

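Reads were trimmed with cutadapt 1.2.2, per the submitters' processing notes, which name the pig builds Sscrofa 10.2 and susScr 3 (aligner and miRNA release: not given in the sources used here). Per the file headers, the authors deposited reads per miRNA as estimated counts, with fractions, and RPM. Columns of values per sample that were not used number 8. Counts were rounded, 5 rows that repeat another row's precursors and reads (within 0.1%) were merged, leaving 321 miRNAs, and libraries were scaled with TMM (edgeR 4.0.16, R 4.3.3). Ratios of CPM carry exact conditional binomial (Clopper-Pearson) 95% intervals (scipy 1.17.1), levels exact Poisson and shares exact binomial ones. A miRNA was counted when its ratio reached 2-fold, or 0.32 on the log2 scale (the smaller threshold), with an interval excluding 1. edgeR's quasi-likelihood test over all measured miRNAs, with Benjamini-Hochberg adjustment, gave the additive tests, and DESeq2 1.42.0 and limma 3.58.1 were alternatives. The tests were checked on simulated independent libraries with changes of 2-fold and 4-fold. That check does not cover smaller differences such as those of the members, or regions taken from the same piglets. All 9 members were named, with miR-503, the 3 nearest patterns of each sum and the 4 most abundant related miRNAs. Other scalings, minimums of CPM, merging and rounding were varied. Epithelial, muscle, choroid plexus, immune and astrocyte markers were also matched. Their sums ranged over the libraries from 127 to 457 CPM, 169 to 276 CPM, 164 to 253 CPM, 775 to 961 CPM and 31808 to 37842 CPM. The members and lists were chosen with earlier results of these data known.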

Additional observations from a re-analysis of the deposited data

Results flagged for a closer look

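With TMM scaling the iron ratio of 3 members and 1 sum lay above 1 in ventral and below 1 in dorsal hippocampus. Both counting intervals excluded 1. The dorsal minus ventral difference of log2 ratios was -0.70 for miR-497 (ratios of 1.07 and 0.659), -0.48 for miR-15a (1.07 and 0.770), -0.23 for miR-16 (1.15 and 0.982) and -0.32 for the sum of the 6 miRNAs with the AGCAGCA seed (1.07 and 0.857). Each ratio rests on 1 pooled library a side, so the difference between regions was not tested. The opposite sides with both intervals excluding 1 were lost for miR-15a with total read scaling (ventral ratio of 1.03, 0.985 to 1.07). They were lost for miR-16 with DESeq2 size factors (dorsal ratio of 0.989, 0.972 to 1.01) and with rows not merged (0.993, 0.976 to 1.01). Those of miR-497 and of the sum held under the alternatives run, though the ventral interval of miR-497 began at 1.0003 with total read scaling. miR-195 gained them with total read scaling (ventral 1.14, 1.11 to 1.17, and dorsal 0.904, 0.882 to 0.925). It also gained them with the authors' RPM (1.19, 1.16 to 1.22, and 0.916, 0.894 to 0.938). With total read scaling miR-15b lay the other way round, at 0.939 (0.882 to 0.999) in ventral and 1.15 (1.08 to 1.23) in dorsal hippocampus.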

How the results depend on the processing

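The count of members past the smaller threshold as higher was 2 under all alternatives for ventral iron, and moved with scaling or merging in the other comparisons. In the dorsal iron comparison that count was 1 with TMM, 0 with totals or the authors' RPM and 2 with rows not merged. In dorsal against ventral it was 3 in control piglets with TMM and 0 with totals or rows not merged, and 1 in iron piglets with TMM and 0 with totals or the authors' RPM. The members' counts of at least 2-fold were 0 under all alternatives. miR-497 was lower in iron dorsal than in control dorsal at ratios of 0.604 to 0.666 over the alternatives, and the sum of miR-103 and miR-107 had iron ratios of 1.32 to 1.40 in ventral and 1.12 to 1.24 in dorsal hippocampus. The miR-15b ratio of control dorsal to control ventral passed to the other side of 1, at 1.02 with the authors' RPM, and with DESeq2 size factors. edgeR called 0 members for iron and for region under each alternative. Over all miRNAs it called 0 for iron, but 2 with totals, DESeq2 size factors or rows not merged and 3 with no minimum, and DESeq2's Wald test called 1; for region it called 3 with totals, DESeq2 size factors or rows not merged and 4 with no minimum. The log2 difference of miR-16 changed sign with totals, to -0.004 for iron and -0.016 for region. Counts of all miRNAs at least 2-fold different became 9, 6, 11 and 4 with no minimum and 3, 0, 2 and 0 with a minimum of 100 CPM, in place of 5, 2, 5 and 2 (ventral iron, dorsal iron, control regions, iron regions). With totals that of dorsal iron was 4. With a minimum of 100 CPM 21 passed the smaller threshold as lower for ventral iron, in place of 33, and with the authors' RPM 15 were higher in iron regions, in place of 29. With the authors' RPM 30 were higher and 66 lower for dorsal iron, and 15 and 55 in iron regions. Leaving out a library removes a side of each pairwise comparison that holds it. It also leaves the additive model no residual degree of freedom, and no such value was computed. The region test is blocked by treatment, and with 1 library per group no further pairing was available. Depth limits miR-424-3p, at 220 to 370 reads.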

Other observations

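These values were chosen after they were seen. The conserved table holds a row, human miR-103b, whose sequence is the reverse complement of miR-103, and its reads came to 100.02% to 100.08% of those in the row of miR-103 itself, or 18.2% to 18.7% of the mir-103 family's reads. Whether the authors' counting used strand is not stated in the labels. The share of miR-107 depends on the table: by name it took 14.9% to 15.8% of the miR-103 and miR-107 reads in the conserved table, against 8.11% to 9.15% in the annotated table, and in both tables control ventral had the highest and iron dorsal the lowest share. The share of miR-497 in its pair with miR-195 was 59.6% in control ventral, 56.7% in iron ventral, 57.8% in control dorsal and 49.2% in iron dorsal in the conserved table. That of miR-15a in its pair with miR-15b was 69.7% in control ventral, 71.4% in iron ventral, 71.2% in control dorsal and 60.3% in iron dorsal.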
